A study of Trachinotus blochii with 22 samples.

Results

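Golden pompano (Trachinotus blochii) livers from the hypoxia 12 h group (3 libraries) were set against livers from the normoxia 12 h group (3 libraries) by small RNA sequencing. These 6 libraries belong to a series of 22 libraries in 8 groups, which also holds hypoxia and normoxia at 0 h and rapid and gradual reoxygenation at 3 h and 12 h. All miRNA entries with at least 1 CPM (reads scaled to an equal library total) in at least 2 of the 6 libraries were taken, with rows of identical values counted once, which left 542 of 1400 distinct entries under 252 family names. The labels give no oxygen level, age, sex or strain, and do not say from when the hours were counted. They do not say whether each library is a separate fish, so p-values here measure only spread between libraries, which may be technical. The main test pools that spread over all 22 libraries of the series, while the permutation tests use the 6 libraries.

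The deposited columns carry letters that the labels do not explain. The letters were placed by the number of libraries each has, since 2 columns of 1 letter carry no time and 3 of another carry 0 h, as the labels give 2 normoxia 0 h and 3 hypoxia 0 h samples. Every direction below rests on that placing. Summed over all deposited rows, the 6 libraries had 24277425 to 31928852 read counts, so 1 read was worth 0.0313 to 0.0412 CPM. A read that matches several rows counts in each, so these sums exceed the number of reads, which is not known. Levels of the tested entries correlated across entries at 0.988 to 0.993 within the hypoxia group, 0.975 to 0.983 within the normoxia group and 0.976 to 0.990 between the groups (Pearson, log2 scale; a description across entries that share their libraries). Libraries of different groups were thus as much alike as libraries of the normoxia group.

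MicroRNAs are short RNAs that guide Argonaute proteins to messenger RNAs with matching sites and lower their stability or translation. In vertebrates miR-210 is the miRNA best known to be induced by the hypoxia-inducible factors, and miR-462 and miR-731, a fish cluster related to miR-191 and miR-425, have been studied as hypoxia-responsive in zebrafish. The liver is dominated by miR-122, while miR-144 and miR-451 come from 1 erythroid cluster and are carried by red blood cells, which are nucleated in fish. In whole tissue, fewer cells of a type and less RNA per cell cannot be told apart.

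The labelled tissue was checked first. miR-122, the hepatocyte miRNA, was the most abundant family in the 6 libraries, at 89508, 94511 and 96673 CPM under hypoxia and 89169, 95328 and 93215 CPM under normoxia (oha-miR-122-5p). The levels of the groups overlapped and differed by 0.02 on the log2 scale (95% confidence interval -0.38 to 0.41). Summed over the 48 entries of a hepatocyte list (miR-122, miR-192, miR-194, miR-215, miR-22, miR-148a, miR-101 and others), the level was 451423 ± 10420 CPM under hypoxia and 453307 ± 19745 CPM under normoxia (SD, n = 3 each). Entries that share reads are counted in each. Of the 48 entries, 20 were higher and 28 lower. Groups did not overlap for 1 higher and 3 lower entries, against 4.61% and 7.93% of all entries. Of the 12 families listed, 5 were higher and 7 lower, with a median of -0.02. The largest difference was -0.74, for hsa-miR-215-5p, with overlapping groups (means 685 CPM under hypoxia and 1121 CPM under normoxia).

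At 12 h, miR-144 was lower and 1 predicted miRNA, novel_493, was higher in hypoxia livers than in normoxia livers. They account for all 4 entries that passed an adjusted p of 0.05, which is 0.738% of the entries tested: 3 near-identical miR-144 entries were lower (0.554%) and novel_493 was higher (0.185%). The test was limma with a mean-variance trend on log2(CPM + 1), fitted to all 22 libraries, with Benjamini-Hochberg adjustment over the 542 entries. The SEs, intervals and p-values of limma thus use the spread within all 8 groups, and not that of the 6 libraries alone. A difference on this scale understates the change of low entries. Differences are given as hypoxia 12 h minus normoxia 12 h.

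The miR-144 entry ola-miR-144 stood at 63.5, 34.3 and 33.0 CPM in the hypoxia livers, against 289, 254 and 154 CPM in the normoxia livers. All 3 hypoxia values lay below all 3 normoxia values. The means were 43.6 ± 17.3 CPM under hypoxia and 232 ± 70.5 CPM under normoxia (SD, n = 3 each), a difference of -2.40 ± 0.39 on the log2 scale (SE; 95% confidence interval -3.23 to -1.58) with an adjusted p of 0.00188 by limma. The entries oni-miR-144b and pol-miR-144-5p, with differences of -2.44 and -2.39 and the same adjusted p, followed it in every library; these entries share reads and add no independent evidence.

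The other arm of the hairpin was also lower under hypoxia. xla-miR-144-3p was measured at 22.004, 9.96 and 8.16 CPM under hypoxia and 25.5, 51.9 and 35.6 CPM under normoxia. Its groups did not overlap either, but the difference of -1.49 ± 0.43 did not pass (adjusted p = 0.202, limma). It passed in only 1 of 21 alternatives, library weights (0.0462). The ratio of pol-miR-144-5p to xla-miR-144-3p was 2.47, 3.00 and 3.61 in the hypoxia libraries and 9.40, 4.44 and 3.71 in the normoxia libraries, a log2 difference of -0.84 (exact two-sided permutation p = 0.10, the smallest that 3 against 3 libraries allow). Normoxia library 1 carried much of it: without that library the difference was -0.44, and normoxia library 3 lay close to hypoxia library 3. This ratio was chosen after its values were seen.

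novel_493, which carries no known family name, had 58.0, 39.8 and 31.7 CPM under hypoxia, against 0.492, 8.11 and 1.16 CPM under normoxia. The groups were far apart, and the SD between libraries was 0.43 on the log2 scale under hypoxia and 1.38 under normoxia. The means were 43.2 ± 13.4 CPM under hypoxia and 3.26 ± 4.22 CPM under normoxia (SD, n = 3 each), a difference of 3.80 ± 0.84 (SE; 95% confidence interval 2.03 to 5.56) with an adjusted p of 0.0369 by limma. The call was lost with edgeR on the recovered reads (adjusted p = 0.204). It was also lost without hypoxia library 1 (adjusted p = 0.158), 2 (0.141) or 3 (0.0947) or normoxia library 1 (0.236) or 3 (0.138), in the same limma fit.

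**Figure D1:**
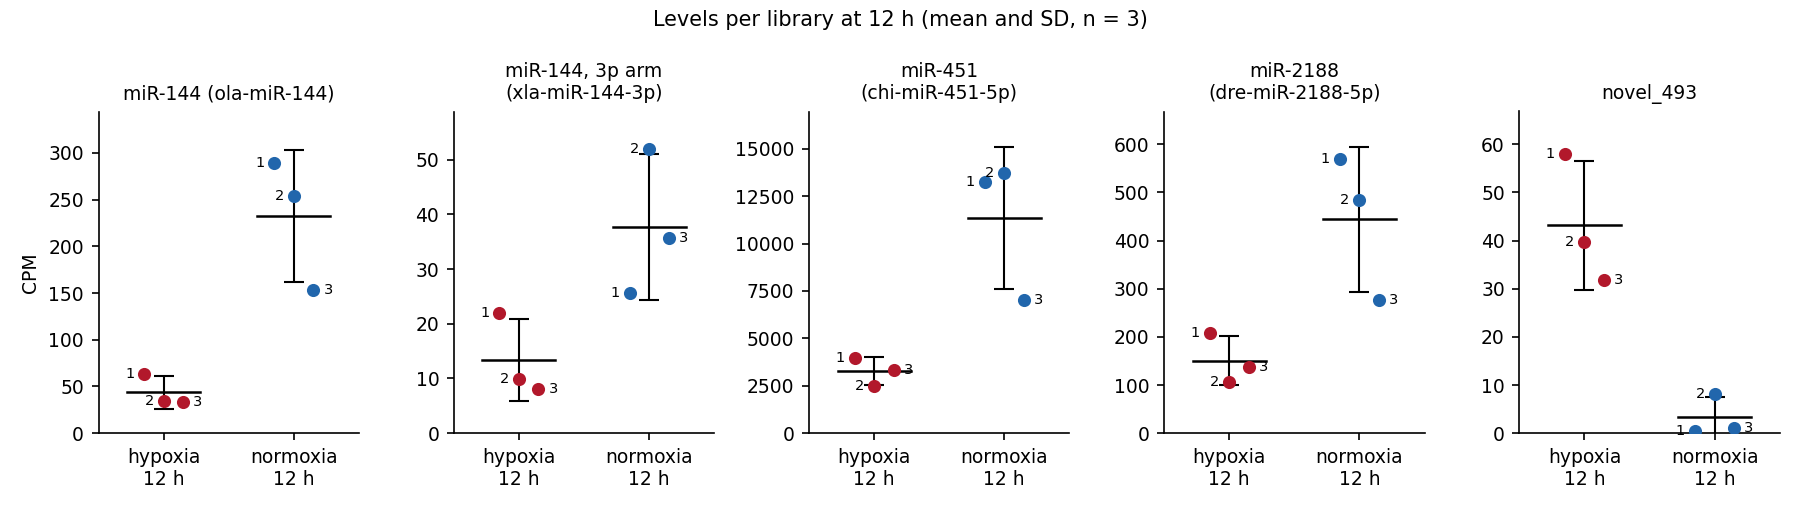
Levels in CPM of miR-144, its 3p arm, miR-451, miR-2188 and novel_493 in each library (points, numbered by library) of the hypoxia 12 h group (left) and the normoxia 12 h group (right), with the mean and SD of 3 libraries (the lower SD bar of novel_493 under normoxia would pass below 0 and ends there). In each panel the groups do not overlap, as for miR-144, where the hypoxia livers lie at 33.0 to 63.5 CPM and the normoxia livers at 154 to 289 CPM.

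The remaining erythroid miRNAs lay lower under hypoxia without passing the test. miR-451, matured by Argonaute without Dicer, was the most abundant of them, at 3967, 2500.1 and 3316 CPM under hypoxia and 13268, 13717 and 7021 CPM under normoxia (chi-miR-451-5p). Each hypoxia library was below each normoxia library, and normoxia library 3 was the nearest to them. The difference was -1.76 ± 0.51 (SE; 95% confidence interval -2.83 to -0.69; adjusted p = 0.202, limma). It passed in only 3 of 22 alternatives: the same test on the 6 libraries alone (adjusted p = 0.0380), library weights (0.0424) and DESeq2 (0.0150).

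miR-2188, the third measured miRNA of the erythroid list, had 208, 107 and 138 CPM under hypoxia, against 569, 485 and 277 CPM under normoxia (dre-miR-2188-5p). The groups did not overlap, and normoxia library 3 was again the lowest of its group. The difference was -1.54 ± 0.49 (SE, adjusted p = 0.231, limma). It passed in only 2 of 22 alternatives, library weights (0.0464) and DESeq2 (0.0292). Of the 4 miRNAs of the erythroid list, 3 were measured, all 3 were lower, 1 passed the test, and miR-486 had no row in the table. The median difference of the list was -1.76, against 0.0041 over all 252 families, each counted by its most abundant entry, of which 1.19% passed. Summed over 8 erythroid entries, the level was 4345, 2698 and 3541 CPM under hypoxia and 14444, 14830 and 7676 CPM under normoxia (exact two-sided permutation p = 0.10, adjusted over 9 classes 0.30). The 8 entries belong to the 3 measured miRNAs. Most of the sum was chi-miR-451-5p, with means of 3261 CPM under hypoxia and 11335 CPM under normoxia, so it adds little to the result for miR-451.

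Marker miRNAs of other cells differed between the same libraries. Pancreatic miR-217 was at 1399, 1504 and 932 CPM under hypoxia and 379, 165 and 1286 CPM under normoxia (hsa-miR-217-5p). Normoxia libraries 1 and 2 were low and normoxia library 3 lay within the range of the hypoxia libraries, so the groups overlapped. The difference of 1.53 ± 1.52 (SE) did not pass (adjusted p = 0.996, limma). miR-216b and miR-216a, from the same genomic cluster, differed by 1.56 and 1.59 with the same pattern over libraries, while the endocrine miR-375 stood at 36.2 CPM in normoxia library 2 and at no more than 2.82 CPM in the other 5. Over all 12 pancreas entries, 9 were higher, 3 were lower and none passed the test, and the summed level was 3238 to 5240 CPM under hypoxia and 734 to 4230 CPM under normoxia (exact p = 0.20). Normoxia library 3, the lowest of its group for the summed erythroid entries, was thus the highest of its group for the summed pancreas entries. The part of pancreatic tissue in the results for miR-144 and novel_493 was not tested.

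Counted by family, leukocyte miRNAs were mostly lower under hypoxia, and none passed. miR-142, expressed throughout the blood cell lineages, had 17.0, 14.5 and 19.0 CPM under hypoxia and 31.5, 34.1 and 30.7 CPM under normoxia (pbv-miR-142-5p). The groups did not overlap, with a difference of -0.90 ± 0.44 (SE; adjusted p = 0.996, limma). The SD between libraries was 0.18 under hypoxia and 0.08 under normoxia on the log2 scale, while the SE draws on all 22 libraries. Of 7 families on the leukocyte list, 6 were lower and 1 was higher, with a median of -0.30. The 2 named miR-142 and miR-142a did not overlap in the lower direction, against 8.33% of all families. These 2 carry the same miRNA number and are not independent measurements. Lymphocyte miR-150 differed by -0.01, and myeloid miR-223 by -0.30 with overlapping groups. The summed leukocyte level, mostly miR-146a, was 13161 to 19139 CPM under hypoxia and 10162 to 18159 CPM under normoxia. Its mean was higher under hypoxia, by 0.24 on the log2 scale, with overlapping groups (exact two-sided permutation p = 0.50).

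**Figure D2:**
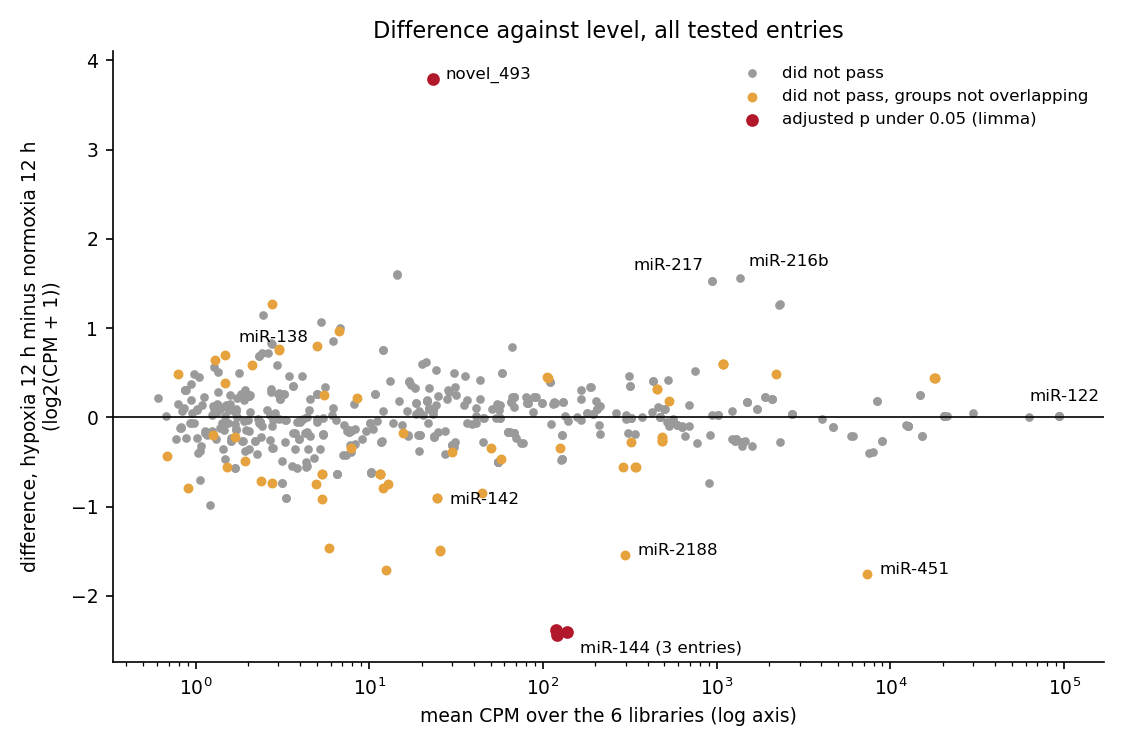
Difference between hypoxia 12 h and normoxia 12 h (log2(CPM + 1), vertical axis) against the mean level over the 6 libraries (CPM, log axis) for the 542 tested entries (points); red points passed the test and orange points are the entries that did not pass but whose groups did not overlap. The 3 miR-144 entries at about -2.4 and novel_493 at 3.80 stand apart from the rest, and miR-451 and miR-2188 lie below most entries of their level.

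miRNAs known for a hypoxia response in other vertebrates did not change detectably at 12 h. dre-miR-210-5p had 16.4, 20.5 and 19.6 CPM under hypoxia and 21.7, 16.2 and 17.3 CPM under normoxia. The groups overlapped fully, and the difference of 0.03 had a 95% confidence interval of -0.67 to 0.74. The same row of values is also listed as gga-miR-210b-3p, so the arm named by the entry is uncertain. dre-miR-210-3p reached at most 0.345 CPM in any of the 6 libraries and was not tested.

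dre-miR-462 was at 198, 191 and 276 CPM under hypoxia and 156, 234 and 218 CPM under normoxia, a difference of 0.13 (95% confidence interval -0.71 to 0.97). Its partner ssa-miR-731-5p differed by -0.06 (-0.87 to 0.75), and miR-21, which hypoxia raises in several mammalian cell types, by 0.18 (-0.33 to 0.69; dre-miR-21). With 3 libraries a group, these intervals are not the limits of what the adjusted test could call. The interval of miR-451, -2.83 to -0.69, lay clear of 0, and miR-451 did not pass either. Of 22 families on the hypoxia-responsive list 19 were measured, 12 were higher (against 50.0% of all families), 7 were lower and none passed, with a median of 0.10. The extremes of the list were miR-199 at 0.49 (aca-miR-199a-5p) and miR-204 at -0.90. miR-204 was measured at no more than 2.38 CPM under hypoxia and 7.92 CPM under normoxia.

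The most abundant families differed little. miR-22a differed by 0.05 (95% confidence interval -0.26 to 0.36), miR-100 by 0.01 (-0.44 to 0.46) and miR-26 by -0.10 (-0.42 to 0.23), each with overlapping groups. miR-192, shared by liver and gut epithelium, differed by -0.21 (-0.96 to 0.54) and miR-146a, a brake on NF-kB signalling, by 0.25 (-0.77 to 1.27). miR-143, a miRNA of smooth muscle and other mesenchymal cells, was the one abundant family whose groups did not overlap, with 21657, 19500 and 20707 CPM under hypoxia and 14376, 13551 and 18032 CPM under normoxia (mmu-miR-143-3p). Its difference of 0.44 ± 0.31 (SE) did not pass (adjusted p = 0.996, limma).

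**Figure D3:**
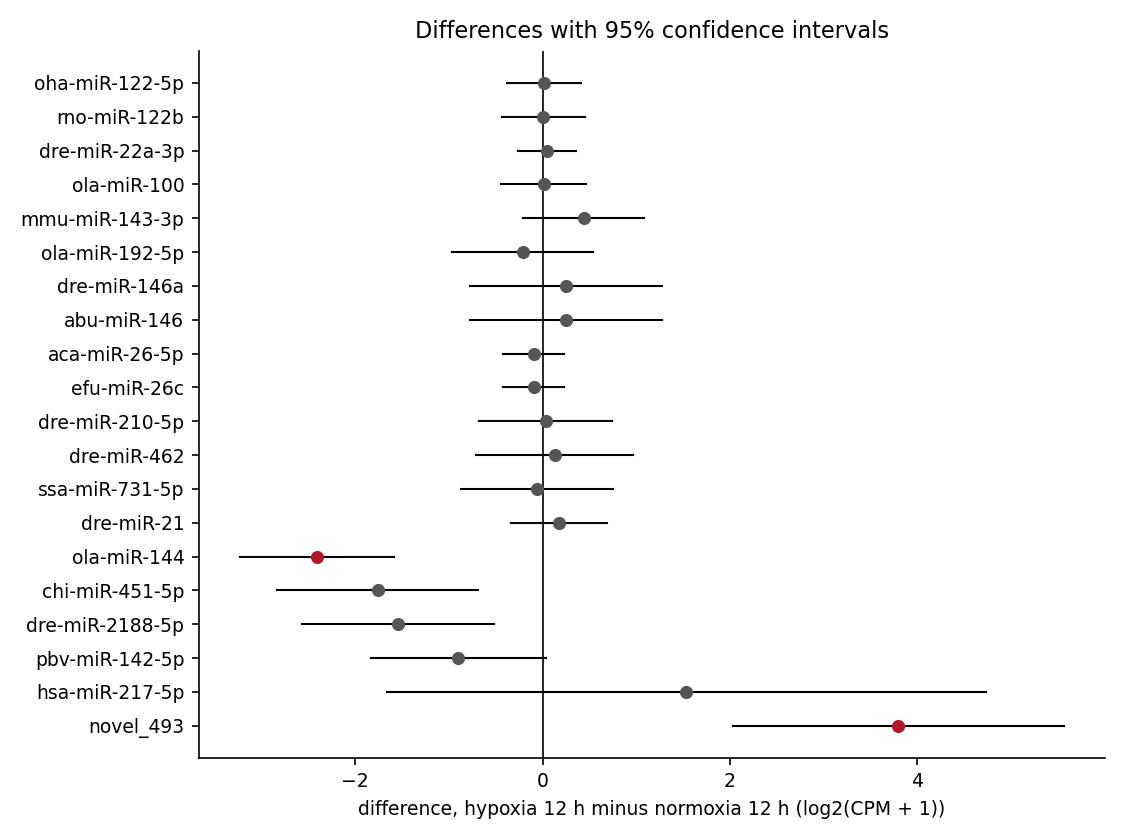
Differences between hypoxia 12 h and normoxia 12 h (log2(CPM + 1), points) with 95% confidence intervals from the limma fit for the 10 most abundant families, hypoxia-responsive miRNAs and blood, pancreas and predicted miRNAs; red points passed the test. The pairs miR-146a and miR-146, and miR-26 and miR-26c, share reads, and the interval of miR-217 is the widest, -1.66 to 4.73.

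Over the whole set, differences were centred on 0. The median was -0.0072, 446 of 542 entries (82.3%) differed by less than 0.5 on the log2 scale, and the 95% confidence interval lay within 1 log2 unit of 0 for 320 entries. An unadjusted p under 0.05 was reached by 21 entries (3.87%), 9 higher (1.66%) and 12 lower (2.21%). That count depended on the libraries that set the spread. Of 542 entries it was 41 with limma on the 6 libraries alone, 33 without the normoxia 0 h group and 46 with library weights. Leaving out 1 of the 6 libraries gave 18 to 31. edgeR called 3 entries, all lower, and DESeq2 called 10 of 532, in all 1.88%, with 4 higher (0.752%) and 6 lower (1.13%). The spread between libraries was smaller under hypoxia, with a median SD of 0.230 on the log2 scale, than under normoxia, with 0.296.

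Groups did not overlap for 68 entries (12.5%), 25 higher (4.61%) and 43 lower (7.93%), or, counted by family, for 35 of 252 families (13.9%), 14 higher (5.56%) and 21 lower (8.33%). Among the 159 families with a mean of at least 10 CPM, 7 lay higher in every hypoxia library. After novel_493 they were miR-200a at 0.60, miR-199a at 0.49, miR-130b at 0.45, miR-143 at 0.44, miR-27b at 0.32 and miR-22b at 0.18. aca-miR-199a-5p, a miRNA of stromal cells that targets HIF1A in mammals, had 2870, 2501 and 2360 CPM under hypoxia and 1611, 1939 and 1955 CPM under normoxia. Its unadjusted p was 0.0320, and its adjusted p was 0.913 by limma. Entries of the miR-199 name did not share 1 direction. aca-miR-199b-5p was also higher under hypoxia, while gga-miR-199-3p and oni-miR-199c (-0.28) were lower.

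The same rule gave 16 of these 159 families lower in every hypoxia library, of which the 12 largest differences are named here. Besides the erythroid miRNAs described above and 2 entries of miR-142 that share reads, they were ssa-miR-7132b-3p at -0.84, dre-miR-722 at -0.55, ola-miR-15a at -0.39, dre-miR-16b at -0.34, hsa-miR-16-5p at -0.34 and oni-miR-199c at -0.28. ssa-miR-7132b-3p had 25.9, 28.7 and 40.5 CPM under hypoxia and 63.5, 63.8 and 45.0 CPM under normoxia. dre-miR-722, a miRNA studied in zebrafish neutrophils, had 357, 234 and 249 CPM under hypoxia and 371, 392 and 453 CPM under normoxia. None of these 6 passed (adjusted p = 0.996 each, limma).

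miR-15 and miR-16 share a seed and restrain the cell cycle. Of 5 measured families of this group, 4 were lower and their groups did not overlap, against 8.33% of all families, and fru-miR-15b differed by 0.03. hsa-miR-16-5p had 39.8, 46.6 and 45.9 CPM under hypoxia and 59.9, 47.5 and 61.9 CPM under normoxia, with hypoxia library 2 just below normoxia library 2. The 4 differences ran from -0.39 to -0.18 and none passed. Because a read can count in several of these entries, they do not amount to 4 independent measurements. With quantile normalization the median of the group was -0.15, against -0.34 in the fit reported.

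let-7, a family that promotes differentiation, was lower in 10 of 11 entries, against 126 of 252 families, with a median of -0.23 and no call. Because a read can count in several let-7 entries, they do not amount to 11 independent measurements. Only dre-let-7j, 1 of 11 entries, had groups that did not overlap, against 8.33% of all families in that direction. It was at 459, 448 and 426 CPM under hypoxia and 533, 527 and 500 CPM under normoxia. gga-let-7i, the exception in direction, differed by 0.31. Under quantile normalization 5 entries were higher and 6 were lower, with a median of -0.12, so the count by direction depends on the scaling while the median stayed below 0. Without normoxia library 2 the median was -0.04.

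Stromal and epithelial miRNAs were higher on balance without a call. Of 8 vascular and stromal entries 7 were higher, with a median of 0.26, and 2 did not overlap, against 5.56% of all families in that direction. Endothelial miR-126 differed by -0.02 (95% confidence interval -0.48 to 0.44), and dre-miR-145-5p, the cluster partner of miR-143, by 0.50. The summed vascular and stromal level was 82582, 74973 and 79243 CPM under hypoxia and 59805, 55191 and 71042 CPM under normoxia. These groups did not overlap (exact p = 0.10, adjusted 0.30). Much of the sum was miR-143, counted more than once: efu-miR-143 and mmu-miR-143-3p each had means of 20621 CPM under hypoxia and 15320 CPM under normoxia. Of the 39 entries summed, 25 were higher and 14 lower, with a median of 0.083. Groups did not overlap for 4 higher and 3 lower entries, against 4.61% and 7.93% of all entries. Of 9 epithelial entries 6 were higher, with a median of 0.36. Normoxia library 2 stood low for the miR-200 family, as ccr-miR-200a was at 520 CPM in normoxia library 2, against 1014 and 1135 CPM in the other normoxia libraries and 1159 to 1393 CPM under hypoxia. The parts of stromal and epithelial cells in other results were not tested.

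**Figure D4:**
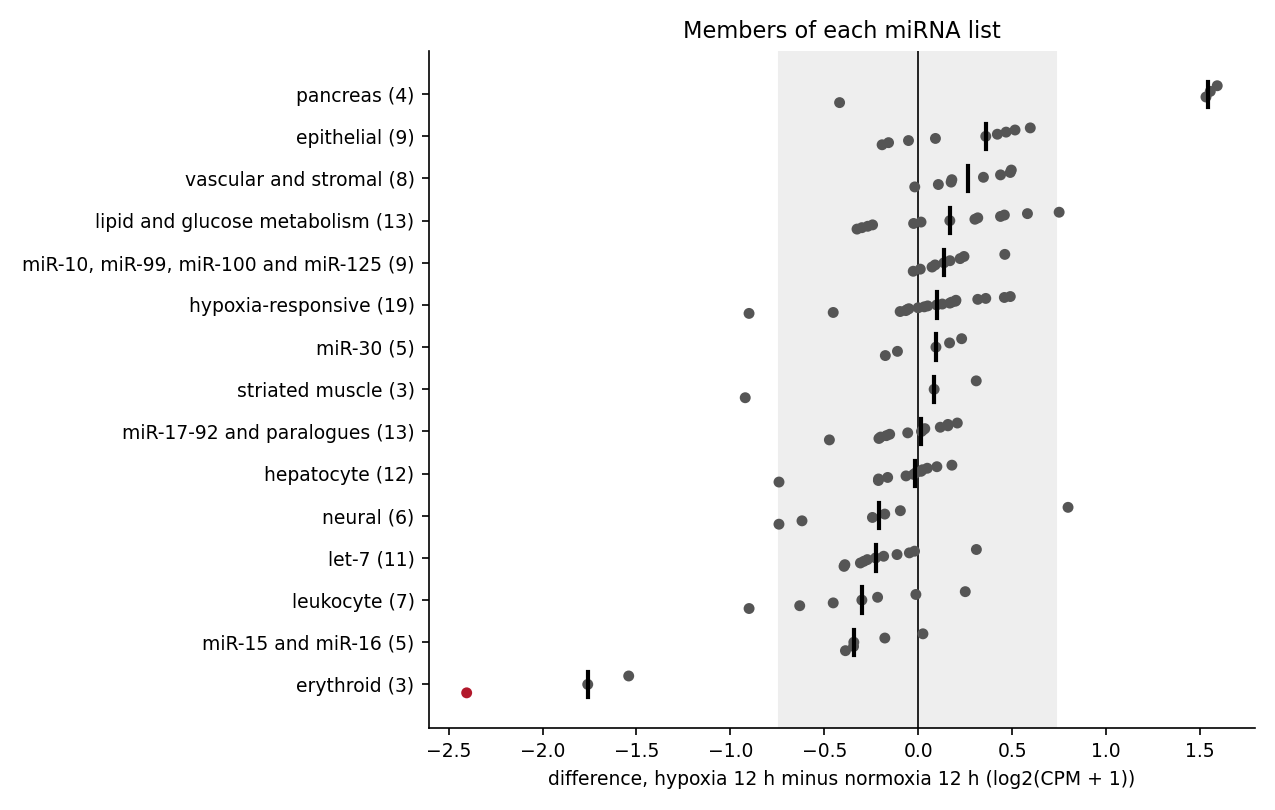
Differences between hypoxia 12 h and normoxia 12 h (log2(CPM + 1)) for the measured members of each miRNA list (points; number of entries in brackets), with the list's median as a black bar; the grey band spans the 5th to 95th percentile of 252 families, -0.74 to 0.73, and the red point passed the test. The 3 erythroid members and 3 of the 4 pancreatic members lie outside the band, as do miR-142, miR-204, miR-206, miR-138 and miR-34b on other lists.

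In the other lists nothing passed. The miR-17-92 group and its paralogues had 7 of 13 entries higher, the miR-30 family 3 of 5, and the group of miR-10, miR-125 and the related miR-99 and miR-100 had 8 of 9, with medians of 0.02, 0.09 and 0.14 and no call. The median of the miR-17-92 group was -0.01 with TMM scaling, and that of miR-30 was -0.0045 with quantile normalization. Lipid and glucose miRNAs had 8 of 13 entries higher and a median of 0.17. Within that list ssa-miR-33a-3p, from the intron of a sterol-response gene in vertebrates, differed by 0.58 and aca-miR-34b-5p, which also carries the name miR-34a, by 0.75, with overlapping groups for both. Striated muscle miRNAs had 3 measured families, all under 10 CPM, of which 2 were higher and 1 lower. Their median of 0.09 changed sign in 3 of 15 alternatives. cel-miR-1-3p differed by 0.09, dme-miR-133-3p by 0.31 and mdo-miR-206 by -0.92. Only mdo-miR-206, 1 of 3, had groups that did not overlap, against 8.33% of all families in that direction. It was at 1.75, 6.29 and 2.78 CPM under hypoxia and 6.97, 7.58 and 6.51 CPM under normoxia. Neural miRNAs had 5 of 6 entries lower, with a median of -0.21, and the exception was miR-138.

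mmu-miR-138-5p, which targets HIF1A in mammalian cells, had 7.62, 6.25 and 6.03 CPM under hypoxia and 3.69, 2.55 and 4.01 CPM under normoxia. The groups did not overlap, with a difference of 0.80 ± 0.24 (SE; 95% confidence interval 0.28 to 1.31; adjusted p = 0.231, limma). The call was made in only 2 of 21 alternatives, library weights (adjusted p = 0.0492) and DESeq2 (0.0131).

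Of 27 predicted entries, 16 were higher, 11 were lower and novel_493 alone passed. Their summed level was 177, 170 and 160 CPM under hypoxia and 141, 149 and 108 CPM under normoxia, which did not overlap. Without novel_493 the sums were 119, 130 and 128 CPM under hypoxia and 140, 141 and 106 CPM under normoxia, which did. The other abundant predicted entries, novel_68, novel_55, novel_57 and novel_90, differed by -0.28, -0.16, 0.32 and 0.07, each with overlapping groups.

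By the arm written in the entry names, both arms were listed for 42 families, and they differed in the same direction in 25 of them. Both counts include miR-9 and miR-126, whose 5p and 3p entries had nearly equal levels (10.3 CPM each for miR-9, 2729 CPM each for miR-126). Such pairs do not measure the arms separately, so their shared direction carries no information. Other pairs are also doubtful. The 5p entries of miR-26 and miR-26a, counted as separate families, had nearly equal levels (12677 and 12674 CPM). So had mmu-miR-126a-5p and mmu-miR-126b-3p (63.1 CPM each). For miR-21 the 5p entry was hsa-miR-21-5p at 3.28 CPM, and not the far more abundant dre-miR-21, whose name gives no arm. The 3p arm of miR-122 (mmu-miR-122-3p) differed by -0.50, carried by normoxia library 1 at 110 CPM, against 41.2 and 50.3 CPM in the other normoxia libraries and 39.8 to 46.8 CPM under hypoxia. For miR-21 the 3p arm (gmo-miR-21-3p) differed by 0.59, with hypoxia library 1 at 51.1 CPM and the other 5 libraries at 7.26 to 19.1 CPM. miR-142 was lower in both arms, with aca-miR-142-3p at -0.64. Single libraries thus set the differences of the minor arms of miR-122 and miR-21.

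Set in the series, normoxia 12 h had the highest mean of the 8 groups for ola-miR-144, chi-miR-451-5p and dre-miR-2188-5p. ola-miR-144 lay at 33.0 to 63.5 CPM at hypoxia 12 h, against 154 to 289 CPM at normoxia 12 h. It was 60.5 to 112 CPM at hypoxia 0 h and 13.9 to 21.7 CPM at normoxia 0 h. Under gradual reoxygenation it was 142 to 244 CPM at 3 h and 37.1 to 98.8 CPM at 12 h, and under rapid reoxygenation 71.3 to 112 CPM at 3 h and 53.8 to 82.9 CPM at 12 h. The hypoxia 12 h values thus overlapped those of hypoxia 0 h and of the 12 h reoxygenation groups, and the normoxia 12 h values those of gradual reoxygenation at 3 h alone. For chi-miR-451-5p the same groups were the high ones, with 7021 to 13717 CPM at normoxia 12 h and 9316 to 12623 CPM at gradual reoxygenation 3 h. Any other library had at most 4737 CPM. The order of the low groups differed. The hypoxia 12 h mean of chi-miR-451-5p (3261 CPM) lay above those of gradual (2991 CPM) and rapid (2363 CPM) reoxygenation at 12 h. That of ola-miR-144 (43.6 CPM) lay below them (74.5 and 68.3 CPM).

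novel_493 was low at normoxia 12 h, but also at 6.57 to 9.75 CPM under gradual reoxygenation at 3 h and at 1.32 and 12.3 CPM under rapid reoxygenation at 12 h. It was 23.9 and 76.2 CPM at normoxia 0 h and 18.1 to 22.5 CPM at hypoxia 0 h. One library of rapid reoxygenation at 3 h had 107 CPM, and the other libraries of that group had 7.58 and 8.15 CPM. A high level of novel_493 was therefore found in groups with and without hypoxia.

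**Figure D5:**
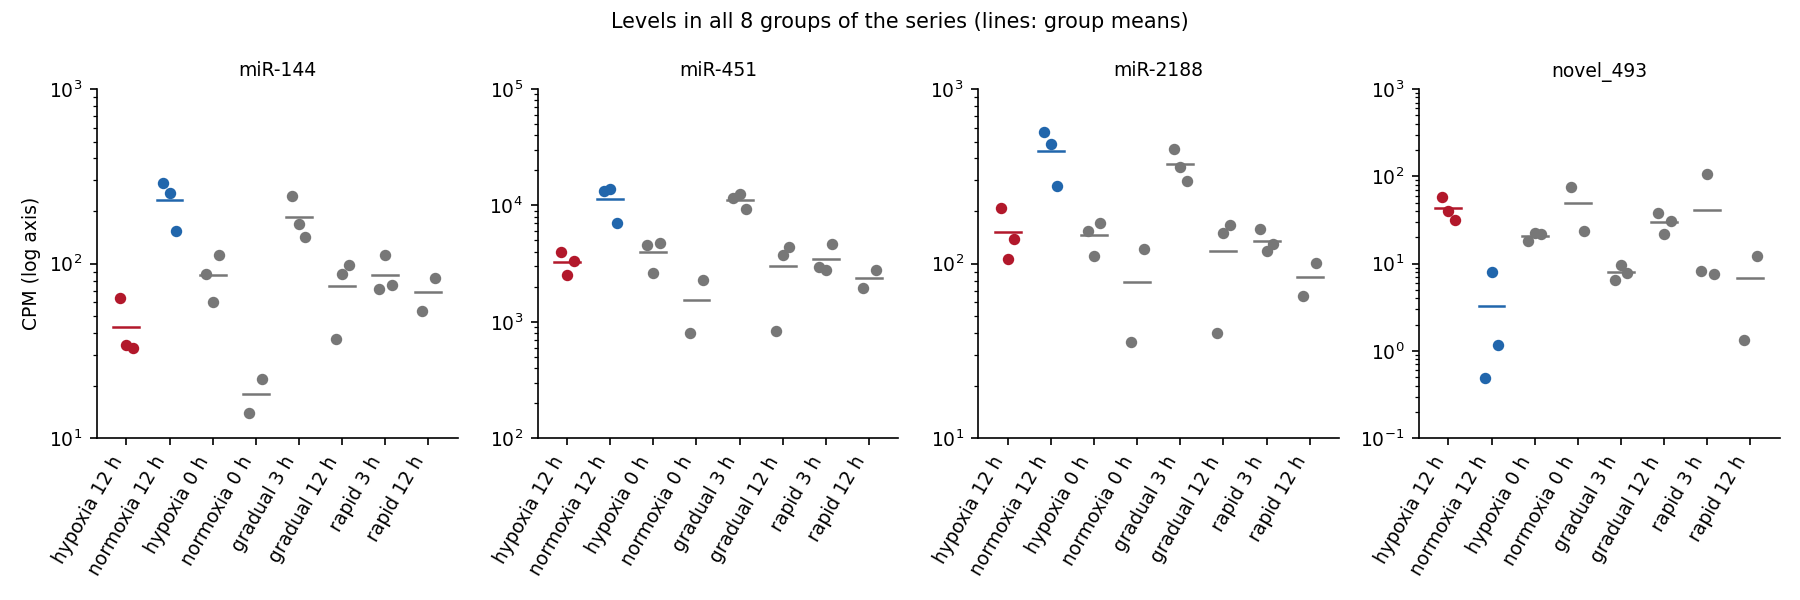
Levels (CPM, log axis) of miR-144, miR-451, miR-2188 and novel_493 in each library (points) of the 8 groups of the series, with lines at the group means; hypoxia 12 h is red, normoxia 12 h blue and the other groups grey. For the 3 erythroid miRNAs the normoxia 12 h and gradual reoxygenation 3 h groups are the high ones, and novel_493 ranges from 7.58 to 107 CPM within the rapid reoxygenation 3 h group.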

How the data were processed

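Liver total RNA (integrity number above 8.0, per the labels' protocols) was sequenced as single 50-base reads. The submitters' processing notes name Bowtie, with no version, and for the reference sequences and other steps nothing is stated there. The authors deposited 1 table of CPM values per entry and library, with group means; the values carry no scaling by length, since 1 read had the same worth for every entry of a library. All values were whole multiples of 1 read within 0.01 of a read (100% of values), so reads were recovered for edgeR and DESeq2. A read that matches several entries counts in each. Of 2108 rows, 708 repeated another row.

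The main test, limma (version 3.58.1, under R 4.3.3, trend option on), used log2(CPM + 1), with all 22 libraries and 8 groups in 1 fit and Benjamini-Hochberg adjustment over 542 entries. Alternatives were edgeR's quasi-likelihood test (4.0.16), DESeq2 (1.42.0), other scalings, pseudocounts, filters, library weights and leaving out each library. Class sums were compared with exact permutation tests (scipy 1.17.1). The fits were tested on simulated data. Entries named are all that passed, the families with non-overlapping groups described in the text, the 10 most abundant families, a fixed set of hypoxia, liver, blood and pancreas miRNAs with both arms, the 5 most abundant predicted entries, and list members as examples. Members and lists were chosen with earlier results of these data known. Libraries of equal number were not treated as pairs in the main fit. Entry names carry the species of the reference miRNA (dre, zebrafish; ola, medaka), and sequences were not used here.

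Read counts summed over all deposited rows, repeated rows included, were 17483816 to 33793069 per library over the series. In the 6 libraries 3 reads came to at most 0.124 CPM. Such floors cover counting error only. The entries nearest the filter had a second-highest level of 1.002 CPM (abu-miR-3120) and 1.016 CPM (tgu-miR-193b-3p) inside, and 0.989 CPM (dre-miR-193a-5p) and 0.971 CPM (hsa-miR-10a-5p) outside.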

Additional observations from a re-analysis of the deposited data

Results flagged for a closer look

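The hypoxia minus normoxia difference at 12 h differed from that at 0 h for the miR-144 entries and for 2 of 3 miR-451 entries. The 12 h difference minus the 0 h difference, tested as an interaction term in the same limma fit over 542 entries, passed for 7 entries, all more negative at 12 h. It was -4.61 for ola-miR-144, -4.54 for oni-miR-144b and -4.63 for pol-miR-144-5p (adjusted p = 9.7e-05 each), which share reads. It was -2.86 for xla-miR-144-3p, -2.87 for mmu-miR-144-3p and -3.26 for chi-miR-451-5p (adjusted p = 0.0435 each, limma), and -2.86 for cpi-miR-451-5p (0.0472). The third miR-451 entry, mdo-miR-451, did not pass (-2.19, adjusted p = 0.173). At 0 h ola-miR-144 was higher under hypoxia than under normoxia by 2.21 (adjusted p = 0.0242, limma). The normoxia 0 h group has 2 libraries, and its columns were placed by their number alone. Its means also stood apart from those of all other groups for several abundant miRNAs. ola-miR-192-5p was at 60608 CPM (other groups 14054 to 18671), oha-miR-122-5p at 54269 CPM (81761 to 95037) and ccr-miR-200a at 4934 CPM (705 to 1405). dre-miR-22a-3p did not stand apart, at 25135 CPM (22647 to 30333). The part of such differences in the 0 h values and in the interaction was not tested.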

How the results depend on the processing

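The 3 miR-144 entries passed in all alternatives run, and ola-miR-144 ran from -2.70 to -2.18 with an adjusted p of at most 0.0452. Of 542 entries 4 were called; library weights gave 14 (5 higher, 9 lower) and DESeq2 10, the other alternatives 3 to 6, and leaving out 1 library 3 to 4. novel_493 was also lost with TMM (adjusted p = 0.0633), a pseudocount of 10 CPM (0.114) and no filter (0.0875). Fitted as a replicate block on the 6 libraries, equal numbers gave 3 calls (0 higher, 3 lower), with ola-miR-144 at 0.0452 and novel_493 at 0.185. Deviations from the group mean correlated at 0.02, -0.13 and -0.21 for equal numbers and at -0.13 to 0.21 for unequal numbers. With 3 libraries a group, these values cannot show whether libraries of equal number were paired.

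List medians that moved by more than the spread between libraries were leukocyte (-0.16 with a pseudocount of 10 CPM, -0.62 to -0.18 without 1 library), let-7 (-0.12 with quantile normalization, -0.27 to -0.035 without 1 library), miR-15 and miR-16 (-0.15 with quantile normalization), miR-30 (-0.0045 with quantile normalization, -0.059 to 0.11 without 1 library) and the miR-10 group (0.0081 to 0.29 without 1 library). The summed hepatocyte level ran from -0.041 to 0.020 without 1 library, changing sign in 3 of 6 cases, and the predicted sum without novel_493, chosen after seeing the data, differed by -0.030.

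Entries with no call changed sign as follows. With TMM oha-miR-122-5p was at -0.011, rno-miR-122b at -0.018 and ola-miR-100 at -0.015; with edgeR they were at -0.021, -0.030 and -0.024. With quantile normalization ola-miR-100 was at -0.10, mze-miR-150 at 0.054, dre-miR-126a-3p at 0.28 and fru-miR-15b at -0.0066. bfl-miR-375 was at 0.036 with a pseudocount of 0.1 CPM and 0.014 with library weights. Leaving out 1 library at a time gave oha-miR-122-5p -0.012 to 0.047, rno-miR-122b -0.045 to 0.046, dre-miR-22a-3p -0.0033 to 0.11, ola-miR-100 -0.054 to 0.067, dre-miR-210-5p -0.050 to 0.15, dre-miR-462 -0.048 to 0.24, ssa-miR-731-5p -0.34 to 0.12 and gmo-miR-21-3p -0.048 to 1.19. The same gave novel_55 -0.34 to 0.037, novel_90 -0.045 to 0.12, bfl-miR-375 -1.24 to 1.13, mze-miR-150 -0.29 to 0.22, ola-miR-223 -0.65 to 0.014, dre-miR-126a-3p -0.059 to 0.021, fru-miR-15b -0.16 to 0.13 and hsa-miR-101-3p -0.44 to 0.057. The cause was not tested.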
